A study of Arabidopsis thaliana with 12 samples.

Results

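The subject here is a set of 3 single genes of Arabidopsis thaliana, grouped by family, without measured activity, as separate detoxification steps. The set holds AT1G60750, an aldo-keto reductase, AT1G80160, a glyoxalase I-like gene (GLYI7), and AT5G39050, a malonyltransferase (PMAT1). The genes were selected on their gold-against-control difference in the deposited tables, as genes among those most strongly upregulated by gold. That difference is therefore given as a description with no test. They are 3 of the 800 gene features listed at the gene level, and all 3 are found in the exon table too, with 9 exon features between them. In the array annotation AT1G60750 and AT1G80160 lie on chromosome 1 and AT5G39050 on chromosome 5 of the tair10 genome.

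Gold-treated and control roots of wild type Col-0 were compared, with 3 biological replicates each, on AraGene-1_0-st arrays. The gold group spent 12 h in a 10 ppm gold solution of pH 4.2 (chloroauric acid, which the labels spell HAuClO4 and the methods HAuCl4), and the control group was kept in distilled water at the same pH. Both groups came from 12-day-old seedlings grown hydroponically in MS medium and held without nutrients during the exposure, and each replicate pooled the roots of many seedlings. There are 6 arrays behind the 12 deposited samples, because each array was summarized both by gene and by exon.

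Aldehydes and ketones form in plant cells when membrane lipids are peroxidized and when sugars break down, and they react with proteins and nucleic acids. Aldo-keto reductases use NADPH to reduce such carbonyl groups to alcohols. Glyoxalase I acts on the adduct of methylglyoxal with glutathione, and glyoxalase II then releases lactate and returns the glutathione. PMAT1 belongs to the BAHD acyltransferases, named after their first members and marked by an HXXXD motif, and transfers a malonyl group to the glucosides of phenolic compounds, foreign naphthols included. Glucosylation followed by malonylation is a common route by which plants conjugate foreign phenols.

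All values are the authors' averages over the arrays of a group, as log2 signal, and values of the single arrays were not used here, so the spread between replicates is not given. The averages carry 2 decimals, and rounding alone leaves a difference uncertain by 0.01 on the log2 scale. Both tables list only features that differed by at least 1 on the log2 scale, a 2-fold difference. At the gene level 523 features were higher and 277 lower in gold roots, and at the exon level 2715 were higher and 2262 lower. Of 4 genes picked from general knowledge as markers of root hairs and root epidermis, COBL9, LRX1, EXPA18 and WER, 2 are listed at the gene level and all 4 at the exon level, all lower in gold roots. Over the protein-coding genes of TAIR10.1, 0.78% are listed as lower at the gene level and 9.71% at either level in either direction. A further 1164 of these 27562 genes have exons listed as lower without a gene-level listing. LRX1 and WER also stand in the paper's list of changed transcription factors. The 4 genes were to be described only if listed, so nothing is read from their number. LRX1 averaged 8.89 in gold and 9.90 in control roots, and WER averaged 7.18 in gold and 8.23 in control roots. In whole roots a smaller number of cells of one type cannot be told apart from less RNA per cell, and the part of such a shift in the values below was not tested.

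AT1G60750 is described in the array annotation as an auxin-induced ATB2-like protein, after ATB2 (AT1G60710), an aldo-keto reductase encoded nearby. At the gene level it averaged 9.80 in gold roots and 5.99 in control roots. The difference of 3.81 on the log2 scale is 14.0-fold, between 13.9- and 14.1-fold after rounding. It ranked 4 by difference among the 419 features that name a locus and were higher in gold roots, which makes it the highest of the 3 genes.

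Exon features, which the array calls probe selection regions, carry numbers, and those of a gene are given here as their distance from the number of the gene itself. AT1G60750 has 3 listed regions. Region 1 averaged 9.88 in gold and 5.56 in control roots, a 20.0-fold difference. Region 4 averaged 9.56 in gold and 5.76 in control roots, a 13.9-fold difference. Region 5 averaged 9.83 in gold and 6.21 in control roots, a 12.3-fold difference. The gold averages of the listed regions thus lay within 9.56 to 9.88 and the control averages within 5.56 to 6.21, without overlap. Only regions that differed by at least 2-fold are listed, so this agreement was partly set by that limit. The numbers between region 1 and region 4 are not among the listed regions. Whether the numbers follow the direction of transcription was not tested, and regions that are not listed were not analysed here.

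AT1G80160 encodes a protein with sequence similarity to lactoylglutathione lyase, the other name of glyoxalase I. Its gene-level average was 10.56 in gold roots and 7.18 in control roots. The difference of 3.38 is 10.4-fold, between 10.3- and 10.5-fold after rounding, and ranked 9 among the features that name a locus.

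Of its 5 listed regions, region 1 averaged 8.07 in gold and 5.11 in control roots, a 7.78-fold difference. Regions 2 and 4 had the same difference of 3.57, with averages of 10.0 and 11.88 in gold roots against 6.43 and 8.31 in control roots. Region 5 averaged 12.4 in gold and 8.94 in control roots, an 11.0-fold difference. Region 6 averaged 10.88 in gold and 6.91 in control roots, a 15.7-fold difference. The listed regions therefore spanned 8.07 to 12.4 in gold roots and 5.11 to 8.94 in control roots, and their differences spanned 2.96 to 3.97. The number between regions 2 and 4 is not among them. The array annotation names 2 transcripts for this locus and the TAIR10.1 annotation 3, and the regions were not assigned to any of them.

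AT5G39050 averaged 8.80 in gold roots and 5.34 in control roots. The difference of 3.46 is 11.0-fold, between 10.9- and 11.1-fold after rounding, and ranked 8 among the features that name a locus. The gene has 1 listed region, whose averages of 8.80 in gold and 5.34 in control roots are equal to those of the gene. The exon value is therefore the same measurement and adds no second reading. Equal values were found for 43 of the 75 features listed as higher with a single listed region.

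**Figure D1:**
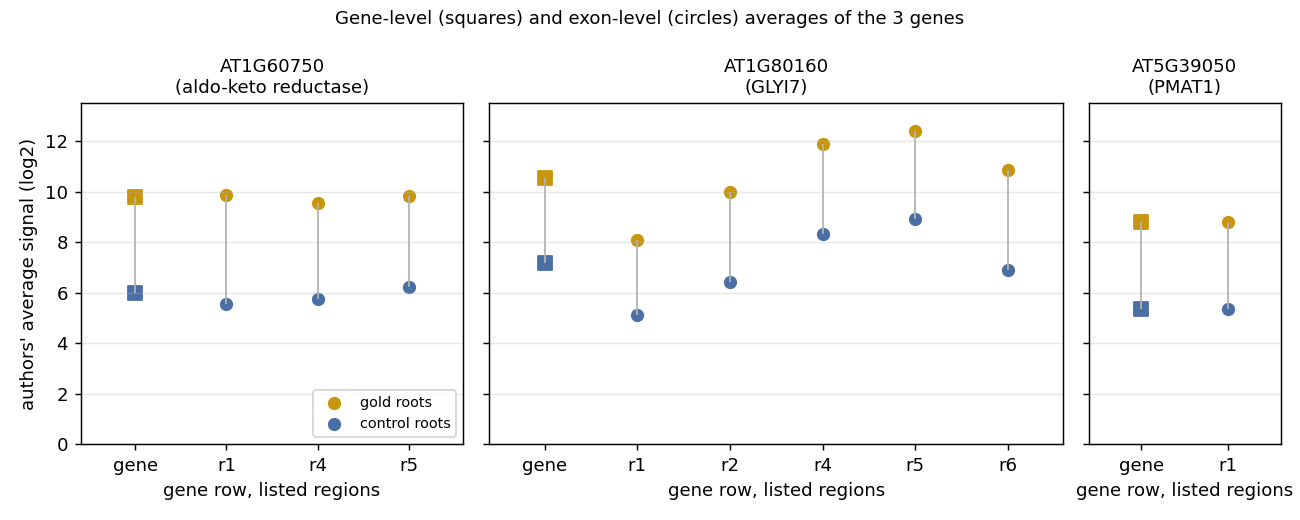
Average log2 signal (y axis, from 0) of AT1G60750, AT1G80160 and AT5G39050 in gold roots and control roots, at the gene level (squares) and in each listed region (circles, numbered r1 to r6 by their distance from the gene's own number). Points are the authors' averages over 3 arrays, without error bars because values of single arrays were not used here. Gold lies 2.96 to 4.32 above control in all 9 listed regions, and regions under 2-fold are never listed.

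The 3 genes lay close to each other, with differences within 0.43 of one another on the log2 scale and a median of 3.46. All 3 were at least 8-fold higher in gold roots, as were 18 of the 800 gene features, or 2.25%. Of their 9 regions, 8 were at least 8-fold higher, against 146 of the 4977 exon features, or 2.93%. The contrast that gives these counts is the one that chose the genes, and nothing is read from them. Of the 18 gene features, 6 had a control average of at least 6, a level below which signals were treated as low. AT1G80160 is one of these, whereas AT1G60750, at 5.99, and AT5G39050, at 5.34, had low control signals. All 3 genes were above that level in gold roots.

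Placed in the order of their differences, the 3 genes had neighbours of varied function, named by their distance in the difference alone. The features just above AT1G60750 were BGLU28, a beta-glucosidase, with 4.31 and CYP82C2, a cytochrome P450, with 4.51. The feature just below it is annotated with both NIT4 and GAPB but names only the locus of NIT4, a nitrilase that acts on beta-cyanoalanine, and its difference of 3.80 was 0.01 lower. Next came AT3G13630, described as a hypothetical protein, with 3.62. THA1, a threonine aldolase, stood above AT5G39050 with 3.59. AT5G39050 and AT1G80160 were direct neighbours, 0.08 apart. Below AT1G80160 followed AOX1D, an alternative oxidase of mitochondria, with 3.35 and CYP71A12, a cytochrome P450 of indole metabolism, with 3.31. Steps of 0.01 to 0.08 are small, and without values of single arrays the order of such neighbours cannot be told from their spread.

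**Figure D2:**
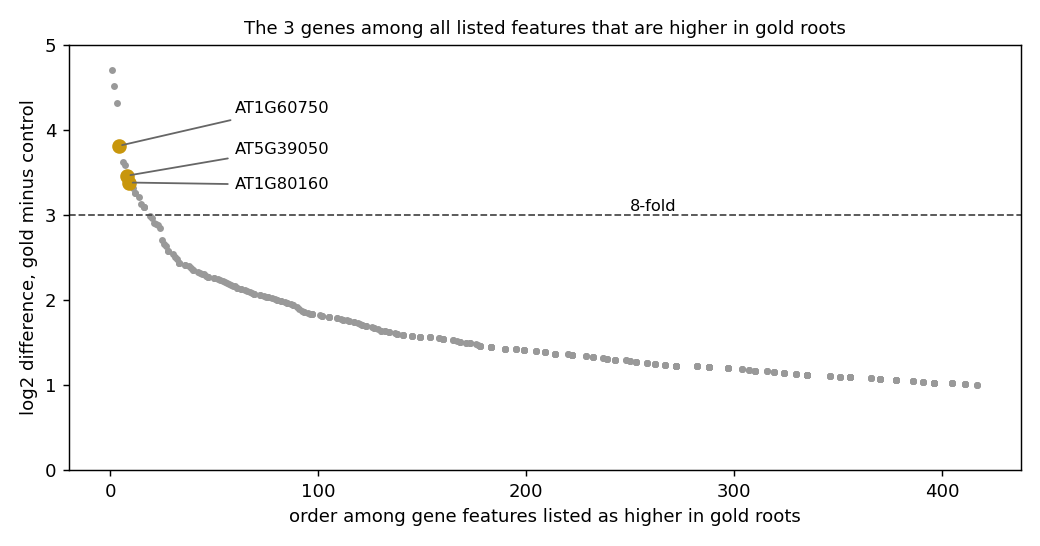
Log2 difference, gold minus control (y axis), of the 419 gene features that name a locus and were higher in gold roots, in descending order (x axis, 1 is the highest). Large points mark AT1G60750 (rank 4), AT5G39050 (rank 8) and AT1G80160 (rank 9), all above the dashed line at 8-fold.

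Exons of one gene can differ in their response, so the range of the exon differences, highest minus lowest, was set beside that of other genes listed as higher with as many listed exons. The range was 0.70 for AT1G60750. Over the 80 genes with 3 listed exons, AT1G60750 included, the median range was 0.40, with values from 0.08 to 1.76, and 56 of them had a smaller range. For AT1G80160 the range was 1.01. Over the 36 genes with 5 listed exons, AT1G80160 included, the median was 0.69, with values from 0.24 to 2.61, and 25 had a smaller range. Both genes thus lay above the median and well inside the span of the other genes. These ranges cover listed exons only, and exons that differed by less than 1 are never listed. Unlisted exons could widen any of the ranges, and genes with differences near that limit have less room for one. How far this bears on the comparison was not tested. The gene-level difference of AT1G60750 was 0.01 above the median of its exons. That of AT1G80160 fell short of its exon median by 0.19, and over the 344 genes with 2 or more listed exons the median gap was 0.10 in the same direction. Leaving out unlisted exons can itself raise an exon median, so nothing is read from this gap.

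**Figure D3:**
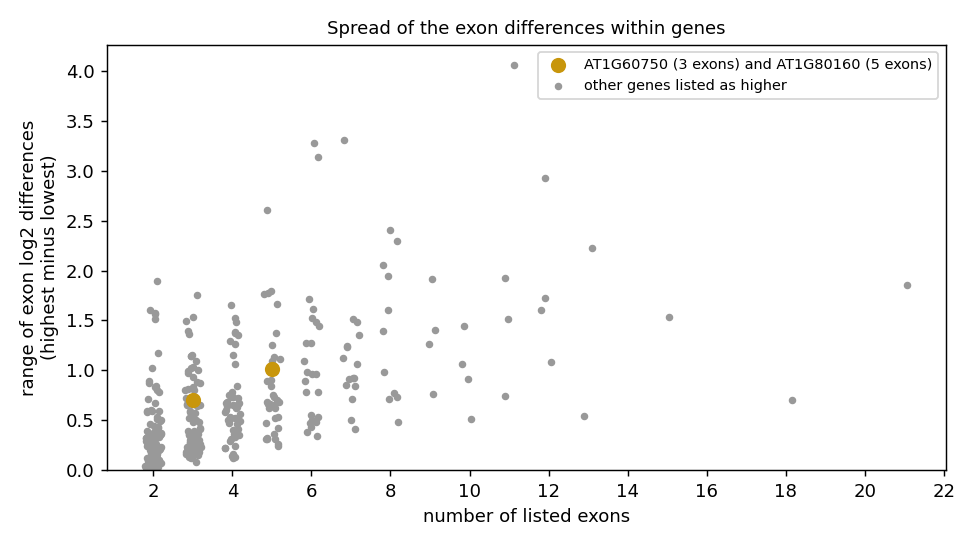
Range of the exon log2 differences within a gene (y axis, highest minus lowest) against its number of listed exons (x axis), for genes listed as higher in gold roots with at least 2 listed exons; small points are shifted sideways to separate them. Large points mark AT1G60750 (0.70) and AT1G80160 (1.01), both within the spread of the other genes.

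The relatives of the 3 genes, and families of enzymes that act on reactive carbonyls, were then looked up in 8 lists of 84 loci, all of them protein-coding in TAIR10.1. As background, 1.52% of the 27562 protein-coding genes of that annotation are listed at the gene level as higher and 0.78% as lower in gold roots. Of the 81 loci other than the 3 genes, 5 are listed at the gene level as higher and 0 as lower. A further 7 have only exons that are listed as higher and 4 only exons listed as lower, which leaves 65 that are listed at neither level. Thus 16 of the 81 loci are listed in some way, beside 9.71% of all protein-coding genes, and because the lists were drawn up with results of these data known, nothing is read from this share. A gene that is not listed may have differed by less than 2-fold or missed the authors' p-value criterion, and whether each has a feature on the array was not analysed here. The 5 loci listed at the gene level had differences from 1.39 to 2.41 with a median of 2.14, beside a median of 1.39 over all gene features listed as higher. Of these, AT1G60730 and AT3G29670 belong to the families of AT1G60750 and AT5G39050, and the other 3 are alkenal reductases. The 3 genes were selected among the highest differences, so nothing is read from the lower values of these loci.

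The aldo-keto reductases number 22, of which AT1G60750 and AT1G60730 are listed at the gene level. AT1G60730, described as an NAD(P)-linked oxidoreductase, averaged 9.78 in gold and 7.64 in control roots, a 4.41-fold difference. All 7 of its listed exons were higher in gold roots, by 1.41 to 2.33 on the log2 scale. The exon with the smallest of these averaged 13.15 in gold and 11.74 in control roots. The genes AT1G60730 and AT1G60750 belong to a row of 5 aldo-keto reductases on chromosome 1 and have 1 gene between them. The remaining 3 of the row, AT1G60680, AT1G60690 and ATB2, are not listed at either level. Neighbours of this kind resemble each other in sequence, and whether probes of one pick up RNA of another was not tested.

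Reductases of the AKR4C group, which act on a broad range of aldehydes, are encoded on chromosomes 2 and 3. None of them is listed at the gene level. ChlAKR (AT2G37770), the chloroplast member, has 2 listed exons, which averaged 6.09 and 4.15 in gold against 3.37 and 2.59 in control roots. Both control averages are low signals, and the second exon was low in gold roots too. AKR4C8 has a single listed exon, with 9.64 in gold and 8.57 in control roots. AKR4C11 has an exon that was lower in gold roots, with 3.01 against 4.29 in control roots, both low signals. AT1G10810, another aldo-keto reductase, has 1 listed exon with 6.15 in gold and 7.34 in control roots. Outside the chromosome 1 row, the listed exons of the family thus include both directions, each value resting on 1 or 2 exons.

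AT1G80160 is the only one of 11 glyoxalase I-like loci that is listed, at either level. The genes AT1G08110, AT1G11840 and AT1G67280, which encode the Arabidopsis enzymes known for glyoxalase I activity on methylglyoxal, are not listed. Nor is any of 5 glyoxalase II-like loci, whose enzymes act on the product of glyoxalase I. The DJ-1 family, whose members include glyoxalases that need no glutathione, also has none of its 6 loci in either table. Of the 10 neighbouring protein-coding genes of AT1G80160, 5 on each side, none is listed at the gene level and AT1G80140 has 1 listed exon. That exon averaged 6.01 in gold roots and a low signal of 4.71 in control roots. Over all protein-coding genes, 1.52% are listed as higher and 0.78% as lower at the gene level, and 9.71% at either level. With so few loci in each group, nothing is read from the counts of this paragraph.

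Among 10 loci of the malonyltransferase and related acyltransferase clade, AT5G39050 and AT3G29670 (PMAT2) are listed, both as higher in gold roots. PMAT2, the other phenolic glucoside malonyltransferase, averaged 7.49 in gold and 5.08 in control roots, a 5.31-fold difference from a low control signal. Its 2 listed exons averaged 7.74 and 7.18 in gold against 4.94 and 4.84 in control roots, which are low signals too. The difference of PMAT2 was 2.41 on the log2 scale, beside 3.46 for PMAT1. AT5G39080 and AT5G39090, which follow PMAT1 on chromosome 5, are not listed at either level. The anthocyanin malonyltransferase gene 5MAT (AT3G29590), the anthocyanin acyltransferase genes AT1G03495 and AT1G03940 and the acyltransferase gene AACT1 (AT5G61160) are not listed either.

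Alkenal reductases reduce the double bond of reactive alkenals such as those from lipid peroxidation. Of 12 loci, AT5G16970 (AER), AT5G16980 and AT5G38000 are listed as higher at the gene level. AT5G16980 averaged 5.49 in gold and 3.21 in control roots. Both lie below 6, the level under which signals were treated as low, so no fold is given for it. AER averaged 7.96 in gold and 6.42 in control roots, a 2.91-fold difference. The single listed exon of AER averaged 5.71 in gold and 2.32 in control roots, both also below 6, so again no fold is given. AT5G38000 averaged 9.47 in gold and 8.08 in control roots, a 2.62-fold difference. At the exon level only, AT5G16960 had 2 exons and AT5G37980 had 1 exon higher in gold roots, all with low control signals. The exon of AT5G37980 was low in gold roots too. In contrast, AT1G65560 had 1 exon that was lower, with 5.97 in gold and 7.01 in control roots.

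The aldehyde-reducing short-chain dehydrogenases and the aldehyde dehydrogenases, which oxidize aldehydes to acids, have no locus in the gene table, of 4 and 14 loci. ALDH7B4 (AT1G54100), a stress-responsive aldehyde dehydrogenase, nevertheless has 8 listed exons. All 8 were higher in gold roots, by 1.04 to 1.36 on the log2 scale, or 2.06- to 2.57-fold. ALDH2B4 has 1 exon listed as higher, with 6.40 in gold roots and a low signal of 5.27 in control roots. ALDH3F1 has 1 that was lower, with 7.72 in gold and 8.75 in control roots. AT3G04000, a chloroplast aldehyde reductase, has 1 with 9.49 in gold and 8.46 in control roots.

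**Figure D4:**
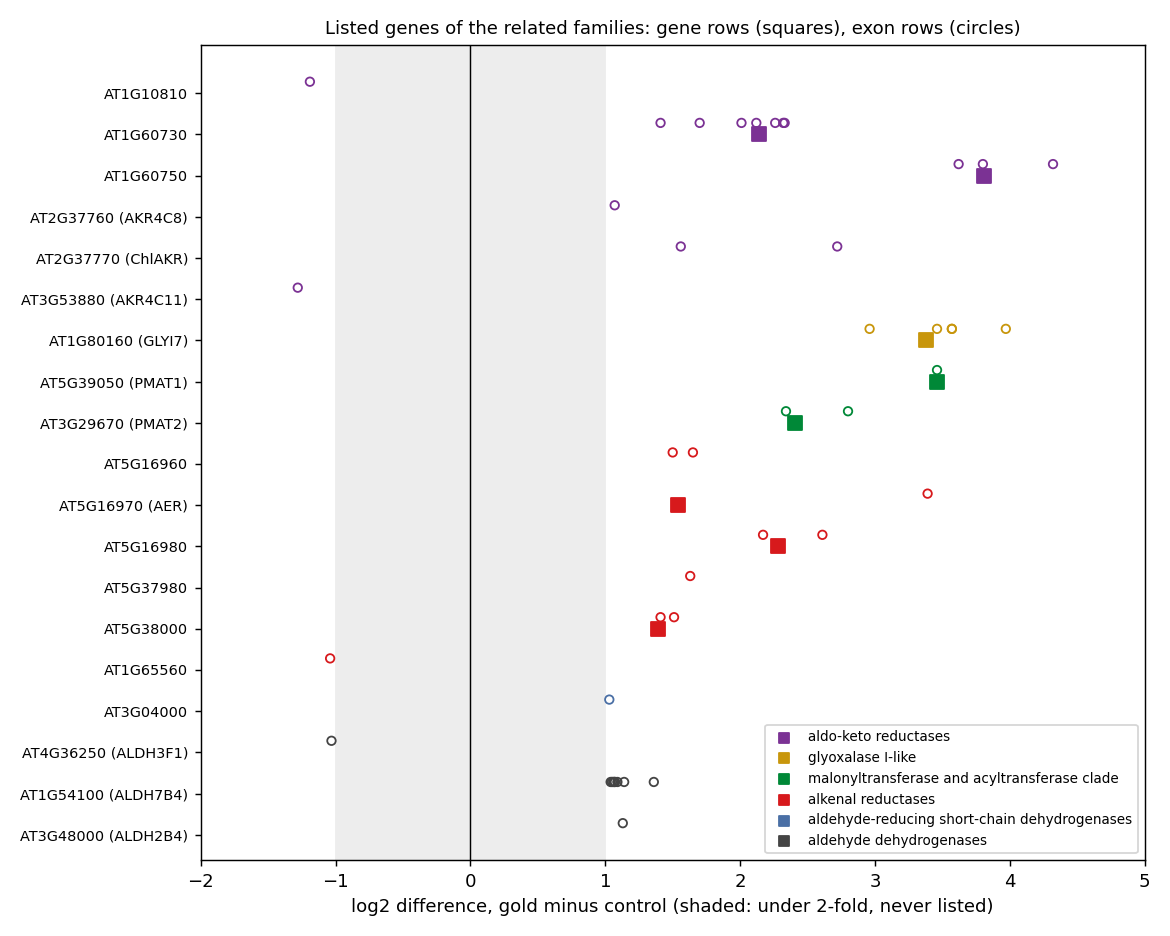
Log2 difference, gold minus control (x axis), of every listed gene of the related families (rows, coloured by family), with gene-level values as squares and exon-level values as open circles set slightly above them. The shaded band holds differences under 2-fold, which the tables never list. AT1G60750, AT5G39050 and AT1G80160 lie at 3.38 to 3.81, and the 5 other loci with a gene-level value lie at 1.39 to 2.41.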

How the data were processed

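Roots of 3 gold-treated and 3 control replicates were hybridized to AraGene-1_0-st arrays. The authors summarized the probes with RMA in the Expression Console, a method that subtracts background, applies quantile normalization and yields log2 values for genes and exons. The deposited tables hold, for each group, a bi-weight average of the log2 signal from the Transcriptome Analysis Console. The authors kept features with a fold change of more than 2 and an ANOVA p-value under 0.05. The paper reports fewer genes and exons under these criteria than are listed here, and the reason was not examined. The columns with the authors' fold changes, p-values and FDR were not used. No test was run, because only group averages were used here, and the number of arrays limits the precision.

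The log2 difference, gold minus control, was computed from the averages, and folds from that difference. Loci were read from the gene symbol and public gene ID of each feature. Of the gene features, 171 name no locus, and 635 of 637 loci matched the TAIR10.1 gene table. That annotation was used for names, gene order, gene type and transcript numbers only. The 3 genes and the family lists, drawn up from general knowledge, were chosen with earlier results of these data known. Genes named are the 3 genes, the 2 features on either side in the order of differences, listed genes of the family lists and 4 root genes; unlisted family members and chromosomal neighbours were added with the data at hand. Alternatives were exon medians and means, leaving out low signals, a 4-fold threshold and other ways of matching. The code for differences and counts was checked on a simulated table with known answers, which is no test against chance. Python 3.11.15, numpy 2.4.6, pandas 2.3.3 and matplotlib 3.10.9 were used.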

Additional observations from a re-analysis of the deposited data

How the results depend on the processing

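Of 16 alternative values, 5 moved, all of them counts of features or loci. Because the spread between arrays was not used here, a difference of a gene was taken to have moved if it shifted by more than the SD of its exon differences, which was 0.36 for both AT1G60750 and AT1G80160. Taking the median or mean of the listed exons in place of the gene-level value gave 3.80 and 3.91 for AT1G60750 and 3.57 and 3.51 for AT1G80160, and leaving out exons below 6 gave 3.62 for AT1G60750, from its region 5 alone, and 3.57 for AT1G80160. The exons come from the same arrays as the gene value, and their own SD set the limit. These alternatives therefore had little room to move and are no independent check. For AT5G39050 the exon median and mean are the same measurement as the gene value, so they could not move, and no exon was left without low signals. A 4-fold threshold raised the number of features to 85 genes and 553 exons, and a control signal of at least 6 lowered it to 6 genes and 54 exons at 8-fold. Looking in the gene or exon table raised the listed loci of the family lists to 19, against 8 in the gene table alone. Each of these 5 changes could shift its count only up or only down, so nothing is read from the moves.

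No paired analysis was possible because the tables used here hold group averages, although the labels number the replicates, and for the same reason no replicate was left out. Values of the single arrays were not analysed here. The planned promoter motif search was not run. The control averages of AT1G60750, 5.99, and AT5G39050, 5.34, lie below the level of 6, and how this bears on their differences was not tested.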
